A study of Mus musculus with 4 samples.

Results

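RNA-seq values of 10 genes of the hypoxia response and of blood and lymph vessel growth were examined in 4 mouse mammary tumor cell lines, out of 21090 genes in the table. The genes were listed by name: Hif1a, Epas1, Arnt, Vhl, Egln1, Egln2, Egln3, Hif1an, Vegfa and Vegfc. No measured value entered their choice, although results of these data were known when it was made. By the paper's account, all 4 lines trace back to mammary tumor cells of a C57BL/6 mouse whose tumor had spread to the lung. In that mouse the MMTV promoter drove Cre and both a Pik3ca H1047R and a Trp53 R270H allele were present, so the controls carry these alleles too. The unedited parental cells and its vector control were the controls (n = 2). The knockouts (n = 2) were made with Cas9 guides to S100a4, delivered by lentivirus with puromycin selection, and are called exon3 KO and exon2 KO after the exon cut. S100a4 encodes a small calcium-binding protein. Each line gave 1 library, and the sources do not say whether a line is a clone. The title of the exon2 KO gives its cells another number than the other 3 titles do, so its origin from the same cells rests on the paper alone. The labels state no oxygen level for the cultures.

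HIF is a transcription factor made of an oxygen-regulated alpha subunit, Hif1a or Epas1 (HIF-2 alpha), and a constant partner, Arnt (HIF-1 beta). When oxygen is present, the prolyl hydroxylases Egln1, Egln2 and Egln3 mark the alpha protein, the Vhl ubiquitin ligase binds the mark and the protein is degraded, while Hif1an hydroxylates an asparagine that blocks coactivator binding. HIF that escapes binds a core motif and turns on genes for glucose use, vessel growth and oxygen supply, among them Vegfa, a ligand that drives blood vessel growth. Vegfc is the related ligand of lymphatic vessels. Since the alpha protein is set mainly by its degradation, the values below are transcript levels and do not measure HIF protein or its activity.

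Sequences before the start sites are shown first, because several of these genes are themselves textbook HIF targets. The 250 bases before the RefSeq start (GRCm38.p6) were searched for the HIF core motif ACGTG on both strands. The motif stood in 16.6% of 32851 windows of all genes. Of the 10 genes, 9 had a promoter in the table, with 11 windows between them, of which 5 (45.5%) held the motif, 1 in each of 5 genes. These were Hif1a, Egln1, Egln2, Egln3 and Vegfa. Arnt, Vhl, Hif1an and Vegfc had no ACGTG in their windows, and Epas1 had no entry. With GCGTG counted as well, 7 of the 11 windows (63.6%) held either form, against 38.6% of all windows. Stretches of 3 windows around the motif are given below, 5′ to 3′ on the strand of the gene, in capitals where ACGTG stands on either strand.
Hif1a: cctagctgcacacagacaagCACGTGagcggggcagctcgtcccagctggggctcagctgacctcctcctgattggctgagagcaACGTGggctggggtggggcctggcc
Egln2: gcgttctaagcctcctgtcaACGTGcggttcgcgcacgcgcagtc
Egln3: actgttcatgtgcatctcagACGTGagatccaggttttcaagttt
The Hif1a stretch lies at chr12:73907712-73907821 on the plus strand, in an intron of the longest annotated Hif1a transcript, and holds the motif at 2 places, 135 and 70 bases before the start. At the first of these the motif reads on both strands and overlaps itself. The Egln2 stretch (chr7:27166826-27166870, minus strand) and the Egln3 stretch (chr12:54204079-54204123, minus strand) lie outside annotated genes, with the motif 48 and 229 bases before the start. Those of Egln1 and Vegfa fall in annotated exons and are not shown. A match is a description of the letters and not a bound site.

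Transcript levels are given as RPKM, that is, reads per kilobase of a gene's length relative to the library's depth. The totals behind these values ran from 22472024 to 31235456 reads, and intervals below are exact 95% binomial intervals that cover counting error only. S100a4, the edited gene, had 3576 RPKM in the parental cells, 4741 in the vector control, 1136 in the exon3 KO and 1105 in the exon2 KO. Mesenchymal markers, all 6 above the test limit, had a summed RPKM of 5771 in the parental cells and 3145 in the vector control. In the exon3 KO and exon2 KO the sum was 3077 and 2907. Of 6 epithelial markers, Krt8 and Krt18 alone passed it (summed RPKM 34.3 to 130), and Epcam, Cdh1, Krt5 and Krt14 were under 1. The 6 endothelial markers summed to 0.214 to 0.458 RPKM, with Tie1 at 0 in all 4 libraries. Among the immune markers, Cd3e was at 0 in all 4 libraries and Ptprc, Itgam and Csf1r were near 0. Cd68, which many cells also express in lysosomes, was 4.92 and 3.36 in the controls against 11.5 and 13.2 in the knockouts, and its part in the results was not tested.

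Both alpha subunit transcripts were at lower levels in both knockout lines than in both controls. Hif1a, the subunit found in nearly all cells, was at 27.1% and Epas1, the subunit best known from endothelial cells and kidney, at 16.4% of the control mean. The partner Arnt was at 68.3%, Vegfc at 57.8% and the hydroxylase Egln3 at 50.7%. Vegfa was at 89.5%, with the smallest distance from the controls among the genes whose groups did not overlap. Vhl and Egln2 were at 121% and 124%. In all, 7 of the 10 genes were lower in both knockouts than in both controls, against 31.2% of 10871 tested genes, and 2 were higher, against 21.9%. After median ratio scaling 5 were lower, with Egln3 and Vegfa overlapping, and after a correction for GC content and length 6 were lower, with Arnt overlapping, and 0 were higher. Hif1a and Epas1 were at least 2-fold lower in all 4 pairs of a knockout and a control, a state that 1.73% of tested genes reached. Epas1 entered the tested genes only through its controls, so its count there is a description, and after that correction Hif1a was no longer in this state. In libraries of whole cultures, fewer cells with a transcript and less transcript per cell cannot be told apart.

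None of the 10 genes passed the test at an adjusted p of 0.05. The test was limma on log2(RPKM + 1) over genes with mean RPKM of at least 1, which includes all 10 genes, with Benjamini-Hochberg adjustment over all of them. It called 2 genes in all (0.0184%), and voom on whole reads also called 0 of the 10. S100a4, the edited gene, was not called either, with a log2 change of -1.88 and a limma adjusted p of 0.0731. At an unadjusted p under 0.05 there were 4 of the 10 genes, Hif1a, Epas1, Egln3 and Vegfc, all lower. Of 10871 tested genes, 19.1% had such a p in either direction, and 1498 were lower with it. Epas1 is counted here although it entered the tested genes only through its controls. An exact permutation test over 2 libraries against 2 cannot give a two-sided p below 0.333, which is the value it gave for the 9 genes whose groups did not overlap.

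**Figure D1:**
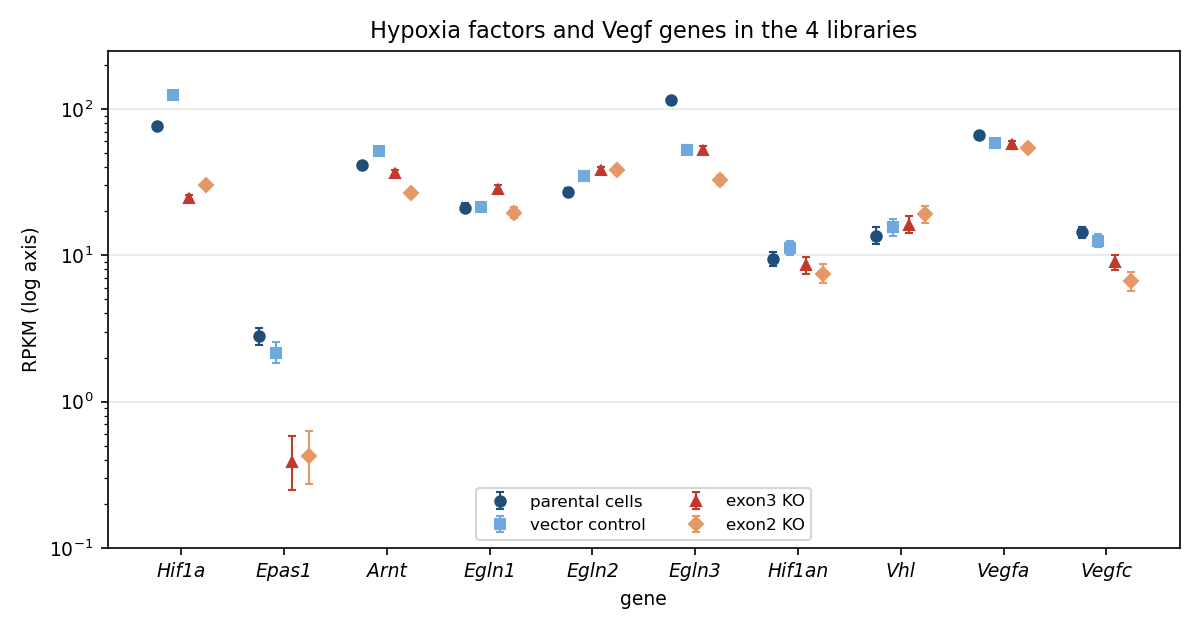
RPKM (log axis) of the 10 genes in the 4 libraries, with exact 95% intervals for counting error. The knockouts lie far below the controls for Hif1a (24.5 and 30.0 against 76.4 and 125) and Epas1 (0.389 and 0.424 against 2.79 and 2.16), and nearly level with them for Vegfa.

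Hif1a (chromosome 12, 73901375 to 73947530, plus strand, GRCm38) had 76.4 RPKM in the parental cells from 5996 reads (95% interval 74.4 to 78.3) and 125 in the vector control, from 7986 reads (122 to 128). It had 24.5 in the exon3 KO (23.3 to 25.8, 1447 reads) and 30.0 in the exon2 KO (28.6 to 31.5, 1696 reads). Both knockouts were thus under both controls, and the controls differed from each other by 1.64-fold, more than the knockouts did (1.22-fold). Controls averaged 101 ± 34.5 (SD, n = 2) and knockouts 27.3 ± 3.89 (SD, n = 2). The log2 change was -1.81 (SE 0.332), with a limma adjusted p of 0.0909, and 0.488% of tested genes had a change this low or lower. Coding GC content was 43.2% in Hif1a against a median of 53.0% over tested genes, and after a correction of each library for GC content and length the change was -1.08, with a limma adjusted p of 0.286. Of 9 alternatives that kept all 4 libraries, Hif1a passed the threshold in 2. These were a robust prior in limma (adjusted p 0.00453) and genes with mean RPKM of at least 5 (0.0458). Elsewhere among the 9 it did not pass, with a limma adjusted p of up to 0.328. Its log2 change was -2.16 without the parental cells and -1.46 without the vector control. The annotation places an antisense gene, Gm15283, across the whole of Hif1a, and whether reads were counted by strand is not given in the sources used here, so their reads cannot be told apart. A protein-coding gene on the same strand, Gm49321 (73937653 to 73968375), overlaps Hif1a in part. Counting by strand could not separate its reads there.

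Epas1 (chromosome 17, 86753700 to 86833410, plus strand) was the gene of the 10 with the lowest level in every library. It had 2.79 RPKM in the parental cells (2.44 to 3.18, 229 reads) and 2.16 in the vector control, from 144 reads (1.82 to 2.54). It had 0.389 in the exon3 KO (0.250 to 0.580, 24 reads) and 0.424 in the exon2 KO (0.274 to 0.626, 25 reads). No knockout interval touched a control interval, while those of the knockouts overlapped each other. Its mean passed the limit of 1 RPKM only through the controls. The log2 change was -1.30 (SE 0.384, limma adjusted p 0.139) on the log2(RPKM + 1) scale, which understates changes at this level, and the ratio of control to knockout means was 6.09. With a coding GC content of 56.8%, the correction left it at -1.29. Without the vector control the limma adjusted p was 0.0405.

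Arnt (chromosome 3, 95434388 to 95497240, plus strand) had 41.4 RPKM in the parental cells, 51.4 in the vector control, 36.6 in the exon3 KO and 26.7 in the exon2 KO. The log2 change was -0.55 (SE 0.315, limma adjusted p 0.359), with a 95% interval from -1.24 to 0.14. After the GC content and length correction it was -0.31, and the groups overlapped. Before that correction, the ratio of Hif1a to Arnt RPKM was 1.84 and 2.43 in the controls and 0.669 and 1.12 in the knockouts. Alpha subunit transcript was therefore more abundant per length than that of its partner in both controls, and less abundant in the exon3 KO. Hif1a exceeded Epas1 in every library, by 27.3-fold in the parental cells, 57.9-fold in the vector control, 63.0-fold in the exon3 KO and 70.8-fold in the exon2 KO.

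The 3 prolyl hydroxylases each had a different order over the libraries. Egln3 (chromosome 12, 54178981 to 54203860, minus strand), itself a strongly hypoxia-induced gene, had 115 RPKM in the parental cells, 52.8 in the vector control, 52.4 in the exon3 KO and 32.7 in the exon2 KO. The parental cells stood apart at 2.17 times the vector control, and the vector control and the exon3 KO were nearly level, with intervals of 49.6 to 56.3 and 49.0 to 55.9. The log2 change was -0.90 (SE 0.397, limma adjusted p 0.250). It was -1.45 without the vector control (limma adjusted p 0.00433) and -0.34 without the parental cells.

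Egln2 (chromosome 7, 27158658 to 27166802, minus strand) had 27.0 RPKM in the parental cells, 34.6 in the vector control, 38.0 in the exon3 KO and 38.3 in the exon2 KO. Its log2 change was 0.31 (SE 0.304, limma adjusted p 0.589), and 0.10 with overlapping groups after the GC content and length correction. As deposited, the vector control lay nearer to the knockouts than to the parental cells. Egln1 (chromosome 8, 124908587 to 124949324, minus strand), the main oxygen sensor of the family, had 21.1 and 21.5 RPKM in the parental cells and vector control, 28.3 in the exon3 KO and 19.6 in the exon2 KO. The knockouts lay on opposite sides of the 2 controls, with a log2 change of 0.14 (SE 0.319, limma adjusted p 0.835).

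The summed RPKM of the 3 hydroxylases overlapped between groups, at 163 in the parental cells, 109 in the vector control, 119 in the exon3 KO and 90.7 in the exon2 KO. Its makeup differed between the libraries. Egln3 made up 70.5% of the sum in the parental cells, 48.5% in the vector control, 44.1% in the exon3 KO and 36.1% in the exon2 KO. Egln2 took 16.6%, 31.7%, 32.0% and 42.3% in the same order. Set against Hif1a, the summed hydroxylase RPKM as deposited was 2.13 and 0.871 times as high in the controls and 4.84 and 3.02 times in the knockouts. It was not recomputed after the GC content and length correction. The part of the log2 change that this correction removed was -0.73 for Hif1a, 0.22 for Egln1, 0.21 for Egln2 and 0.23 for Egln3. Whether the groups would stay apart after it was not tested. The shares and ratios as deposited carry the smallest exact permutation p the design allows, 0.333, where the groups do not overlap.

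**Figure D2:**
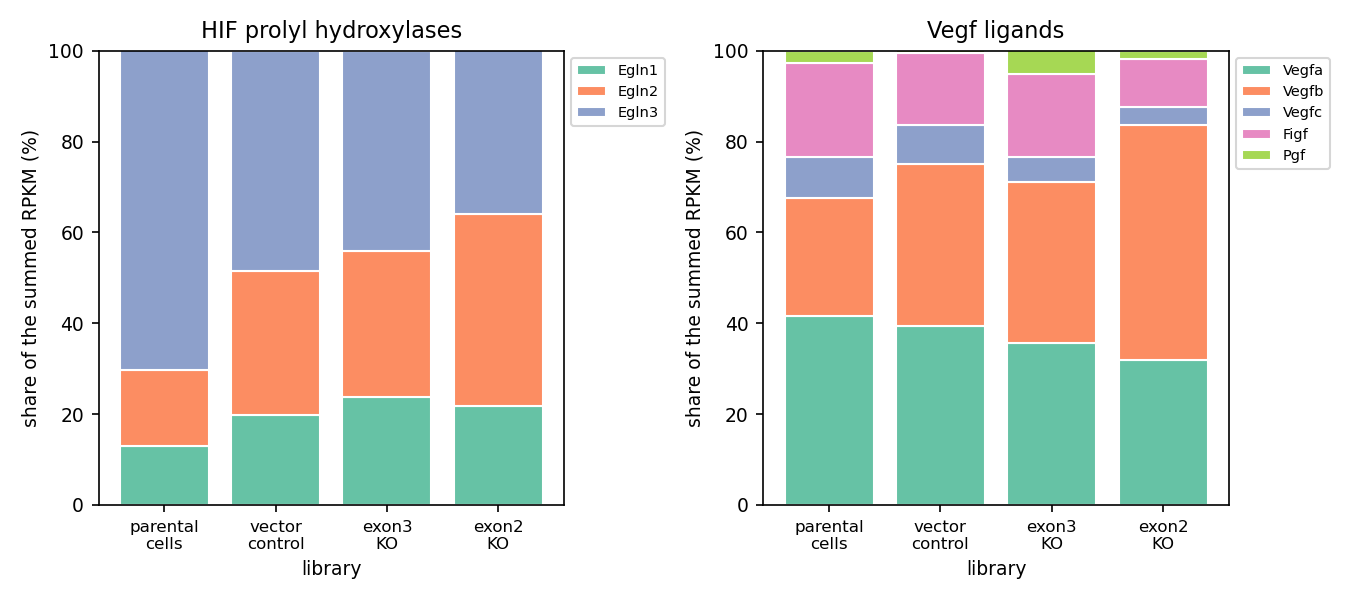
Shares (%) of the summed RPKM of the 3 prolyl hydroxylases (left) and of the 5 Vegf ligands (right) in each library, stacked from 0 to 100. Egln3 goes from 70.5% in the parental cells to 36.1% in the exon2 KO, and Vegfc from 8.97% to 3.88%.

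Vhl and Hif1an, the other 2 negative regulators, had changes whose 95% intervals included 0, from -0.43 to 0.94 and from -1.04 to 0.38 on the log2 scale. Vhl (chromosome 6, 113623959 to 113631633, plus strand) had 13.6 RPKM in the parental cells, 15.6 in the vector control, 16.2 in the exon3 KO and 19.1 in the exon2 KO. The intervals of the vector control (13.6 to 17.8) and the exon3 KO (14.1 to 18.6) overlapped. The log2 change was 0.26 (SE 0.312, limma adjusted p 0.674), and -0.09 after the GC content and length correction. Hif1an (chromosome 19, 44562850 to 44576274, plus strand) had 9.45 and 11.2 RPKM in the parental cells and vector control, and 8.52 and 7.50 in the exon3 KO and exon2 KO. Its log2 change was -0.33 (SE 0.324, limma adjusted p 0.592), and -0.19 after the same correction. As deposited, the intervals of the parental cells (8.43 to 10.6) and the exon3 KO (7.41 to 9.75) overlapped.

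Vegfa (chromosome 17, 46016993 to 46032369, minus strand) had 66.7 RPKM in the parental cells (64.2 to 69.3), 58.3 in the vector control (55.7 to 61.1), 57.4 in the exon3 KO (54.7 to 60.2) and 54.5 in the exon2 KO (51.8 to 57.3). The parental cells was the highest, and the intervals of the vector control overlapped those of both knockouts. The log2 change was -0.15 (SE 0.293, limma adjusted p 0.799) with a 95% interval from -0.80 to 0.49, while that of Hif1a ran from -2.54 to -1.08. After the GC content and length correction the change of Vegfa was -0.37 (-0.93 to 0.19) and the interval of Hif1a ran from -1.73 to -0.44, so that the intervals overlapped. Vegfc (chromosome 8, 54077606 to 54187096, plus strand) had 14.4 and 12.6 RPKM in the parental cells and vector control and 8.98 and 6.63 in the exon3 KO and exon2 KO. Its groups were apart beyond counting error, and the log2 change was -0.73 (SE 0.328, limma adjusted p 0.256).

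The ratio of Vegfa to Vegfc as deposited was 4.63 in both controls, 6.40 in the exon3 KO and 8.22 in the exon2 KO. Neither this ratio nor the shares below were recomputed after the GC content and length correction. The part of the log2 change that the correction removed was 0.22 for Vegfa and -0.24 for Vegfc. Over the 5 Vegf ligands, Vegfa, Vegfb, Vegfc, Figf (Vegf-D) and Pgf, the summed RPKM was 161 in the parental cells, 148 in the vector control, 161 in the exon3 KO and 171 in the exon2 KO. Vegfa made up 41.5% and 39.4% of it in the controls and 35.6% and 31.9% in the knockouts. Vegfc made up 8.97% and 8.50% in the controls and 5.57% and 3.88% in the knockouts. Vegfb, a ligand of Flt1 that does little for vessel sprouting, went from 26.1% in the parental cells to 51.8% in the exon2 KO, while the vector control (35.7%) and the exon3 KO (35.4%) were level.

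**Figure D3:**
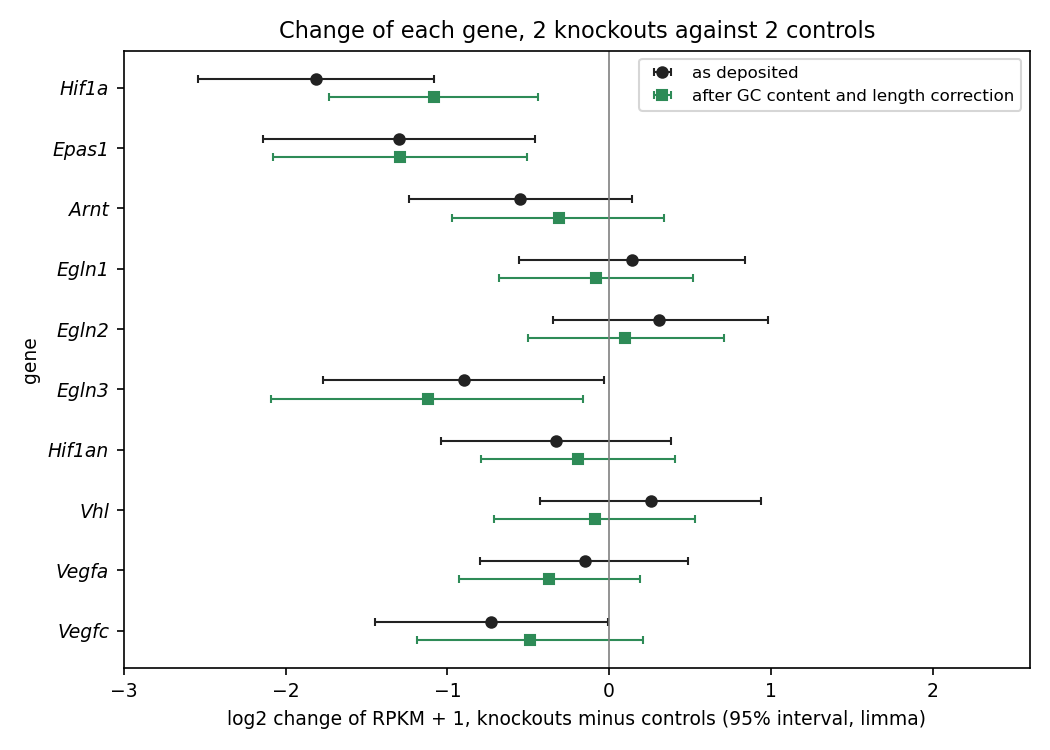
Log2 change of RPKM + 1, knockouts minus controls, for each of the 10 genes, with the 95% interval from limma before any adjustment for the number of genes tested (black circles: as deposited, green squares: after GC content and length correction). As deposited, the intervals of Hif1a, Epas1, Egln3 and Vegfc lie below 0, and after the correction Hif1a is nearer to 0 (-1.08) and Vegfc reaches it.

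Without any correction, the order of the 10 genes by level differed between the groups. In the controls, Hif1a came first by mean RPKM, followed by Egln3, Vegfa, Arnt, Egln2, Egln1, Vhl, Vegfc, Hif1an and Epas1. The ranges of Hif1a and Egln3, of Egln3 and Vegfa, and of Vhl and Vegfc overlapped, so these neighbours could not be ordered. In the knockouts, Vegfa came first, followed by Egln3, Egln2, Arnt, Hif1a, Egln1, Vhl, Hif1an, Vegfc and Epas1. There Egln3 and Egln2, Arnt and Hif1a, Hif1a and Egln1, and Hif1an and Vegfc overlapped. Hif1a thus went from the first place to the fifth by mean, and its knockout range lay wholly below those of Vegfa, Egln3 and Egln2.

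Between the 2 controls, 1 of the 10 genes (Egln3) was at least 2-fold apart, against 8.53% of tested genes, and between the 2 knockouts 0 were, against 4.99%.

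The profiles closest to that of Hif1a over the 4 libraries, by root mean square difference of centred log2(RPKM + 1), were those of Krcc1 (0.0688), Gabpb2 (0.102) and Hap1 (0.112). Krcc1 had 22.8, 35.4, 6.63 and 7.39 RPKM in the parental cells, vector control, exon3 KO and exon2 KO. Closest to Vegfa were Pdzk1 (0.00863), Ythdf1 (0.0153) and Bbs9 (0.0168). Ythdf1 had 46.1, 40.0, 39.2 and 38.2 RPKM in the same order. Likeness over 4 libraries is a description.

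The genes around the core pathway were counted by role, and no gene of these lists passed an adjusted p of 0.05 in limma or with voom on whole reads. At an unadjusted p under 0.05 there were 21 of 104 tested genes (20.2%), near the share of all tested genes. Of 10 relatives of the HIF subunits, 4 were tested, 3 of which were lower in both knockouts (75.0%, against 31.2% of all tested genes) and 0 higher (against 21.9%). Clock and Arntl, partners in the circadian clock, had log2 changes of -1.21 and -0.73, and Ahr, the dioxin receptor that also pairs with Arnt, -0.71. The GC content and length correction brought Clock to -0.52, Arntl to -0.40 and Ahr to -0.46. Ahr passed the limit of 1 RPKM only through the controls. Hif3a, another alpha subunit, had 2.34 RPKM in the parental cells, 0.0195 in the vector control, 1.18 in the exon3 KO and 1.17 in the exon2 KO, with the controls on either side of the knockouts.

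Of 8 partners of the Vhl ligase, 7 were tested, with 1 lower (14.3%, against 31.2% of all tested genes) and 2 higher (28.6%, against 21.9%) in both knockouts. Tceb2 (elongin B) had 132 and 152 RPKM in the parental cells and vector control and 221 and 233 in the exon3 KO and exon2 KO, a log2 change of 0.67. Rbx1, the RING subunit of the ligase, had 42.3 and 72.5 in the controls and 84.5 and 80.2 in the knockouts. The ubiquitin-conjugating enzyme Ube2d3 had a log2 change of -0.70. After the GC content and length correction the changes were 0.29 for Tceb2, 0.33 for Rbx1 and -0.21 for Ube2d3.

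Of 12 coactivators and stability factors of HIF, 11 were tested, 4 were lower (36.4%) and 2 higher (18.2%) in both knockouts, near the 31.2% and 21.9% of all tested genes, and the list's median was 0.06. Both histone acetyltransferases that HIF recruits were among those lower. Ep300 had 21.0 and 10.9 RPKM in the controls and 6.69 and 7.41 in the knockouts, and Crebbp had 8.65 and 7.02 against 2.76 and 4.45. Their log2 changes were -1.01 (limma adjusted p 0.191) and -0.96 (0.194), and -0.44 and -0.53 after the GC content and length correction. The chaperone Hsp90aa1 had a log2 change of -1.20 and the ubiquitin ligase Siah1a one of -0.56, both uncertain because near-identical copies in the genome may share their reads. The correction brought them to -0.47 and -0.20. Among 12 genes of the mTOR and PI3K pathway, which raises Hif1a translation, all were tested, 5 were lower (41.7%, against 31.2% of all tested genes) and 1 higher (8.33%, against 21.9%). The list mixes activators and inhibitors of the pathway, so these counts give no direction of its input to Hif1a. Its median was -0.05, and 0.07 after the GC content and length correction, against -0.08 and 0.05 over all tested genes. The S6 kinase gene Rps6kb1 had a log2 change of -1.17, Rictor -0.79 and the cap-binding factor Eif4e -0.47. The correction brought Rps6kb1 to -0.66, Rictor to 0.02 and Eif4e to -0.03.

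Of the 8 other Vegf ligands and receptors, 6 were tested, with 2 lower (33.3%) and 1 higher (16.7%) in both knockouts, near the 31.2% and 21.9% of all tested genes. Nrp1, a coreceptor for Vegfa, had 3.98 RPKM in the parental cells, 10.7 in the vector control, 1.69 in the exon3 KO and 0.912 in the exon2 KO, a log2 change of -1.75 (SE 0.447, limma adjusted p 0.116). Nrp2, a coreceptor for Vegfc, had 118 and 105 in the controls and 79.2 and 66.8 in the knockouts, a log2 change of -0.61. Vegfb had one of 0.58, and of 0.26 after the GC content and length correction. The signalling receptor Kdr did not exceed 0.277 RPKM in any library. Flt1 had 15.8 RPKM in the parental cells against 2.66 in the vector control, 1.96 in the exon3 KO and 3.61 in the exon2 KO, so it set the parental cells apart and not the groups.

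Of 20 other angiogenic factors, 17 were tested, 4 lower (23.5%, against 31.2% of all tested genes) and 1 higher (5.88%, against 21.9%) in both knockouts. Angpt2, a ligand of the Tie2 receptor, had 5.82 and 6.13 RPKM in the controls and 1.23 and 0.657 in the knockouts, a log2 change of -1.86 (SE 0.367, limma adjusted p 0.0957). Of the 4 lower genes, all but Sema3a, thus Angpt2 and Fgf1 too, passed the limit of 1 RPKM only through the controls. The vessel-repelling ligand Sema3a had a log2 change of -1.57, which the GC content and length correction brought to -0.97, and the growth factor Fgf1 of -0.98. Pdgfb, which recruits pericytes, had 3.97 and 2.28 RPKM in the controls and 6.10 and 14.4 in the knockouts, a log2 change of 1.37.

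Among 18 tested of 20 textbook HIF target genes of glycolysis, 1 (5.56%) was lower and 7 (38.9%) were higher in both knockouts, against 31.2% and 21.9% of all tested genes, with a median log2 change of 0.21 against -0.08 over all tested genes. The median over the list as deposited was above 0 in each of the 4 pairs, from 0.06 to 0.37. After the GC content and length correction the list's median was 0.21, against 0.05 over all tested genes. The 7 higher genes include Gapdh (2.93 to 5.32 RPKM over the libraries) and Pgam1 (at most 1.40), both uncertain because processed copies may share their reads. Gpi1 (glucose phosphate isomerase) had 103 and 120 RPKM in the controls and 252 and 151 in the knockouts. Hk1 (hexokinase) had a log2 change of 0.37, and the regulators of glycolytic flux Pfkfb3 and Pfkfb4 had 0.77 and -0.47. The glucose transporter Slc2a1 was at 44.8, 58.1, 47.7 and 52.7 RPKM in the parental cells, vector control, exon3 KO and exon2 KO, and its groups overlapped. Lactate dehydrogenase Ldha was at 256, 521, 323 and 320 in the same order, also overlapping, and it may share reads with processed copies.

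Of 34 target genes outside glycolysis, 29 were tested, 6 were lower (20.7%, against 31.2% of all tested genes) and 4 higher (13.8%, against 21.9%) in both knockouts, and the median was 0.11. The sign of this median was not stable: it lay between -0.30 and 0.31 over the 4 pairs. Ndrg1, a stress-induced gene, had 21.3 and 27.8 RPKM in the controls and 63.2 and 76.6 in the knockouts, a log2 change of 1.48 (SE 0.308, limma adjusted p 0.0969), and was at least 2-fold higher in all 4 pairs. The lysyl hydroxylase Plod2 had a log2 change of -1.23 (-0.56 after the GC content and length correction), the lysyl oxidase Loxl2 -1.37 and the mitophagy gene Bnip3 -0.77, the last uncertain because processed copies may share its reads. Carbonic anhydrase Car9, among the most sensitive HIF-1 targets, had 4.40 and 1.53 RPKM in the controls and 5.79 and 3.38 in the knockouts. Adm (adrenomedullin) had 212 in the parental cells, 29.7 in the vector control, 88.6 in the exon3 KO and 74.9 in the exon2 KO. Both had groups that overlapped, with the parental cells above the vector control. The log2 change of Adm was 0.03, and it turned with the control left out: -1.37 when that was the vector control and 1.42 when it was the parental cells (limma adjusted p 0.00441 and 0.00386).

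**Figure D4:**
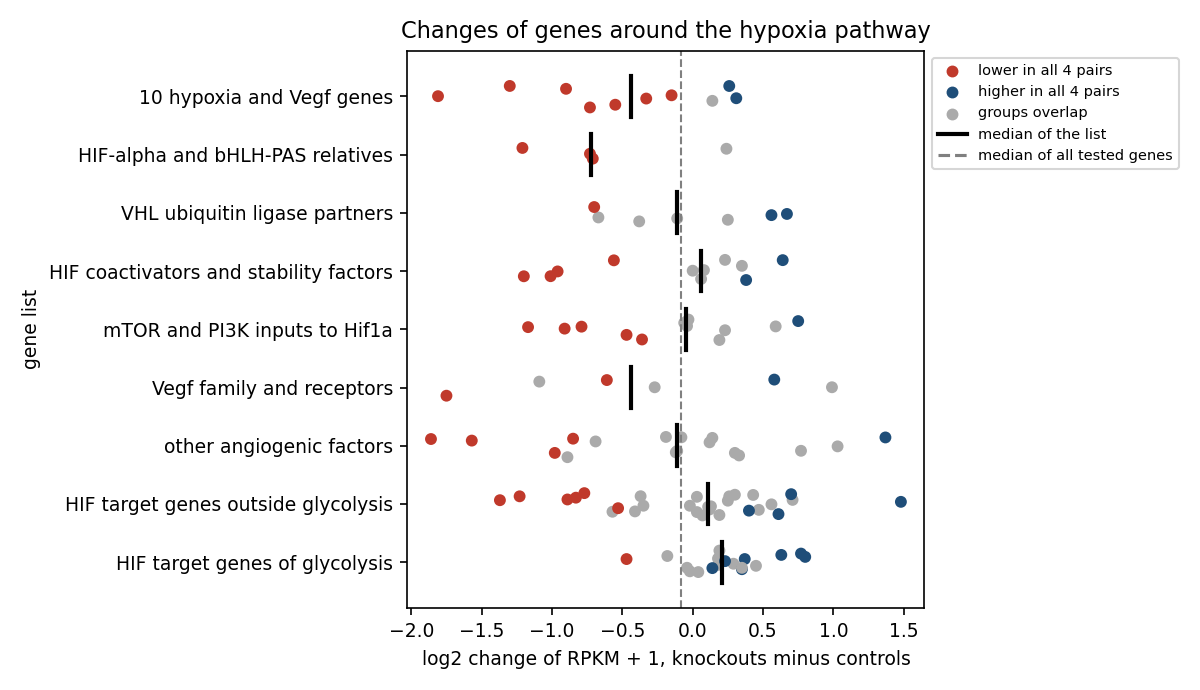
Log2 change of RPKM + 1, knockouts minus controls, of each tested gene in 9 lists by role. Red genes are lower and blue genes higher in all 4 pairs of a knockout and a control, grey genes overlap, black bars are list medians and the dashed line is the median of all tested genes (-0.08). The glycolysis list has 7 blue genes and 1 red, while the 10 hypoxia and Vegf genes have 7 red and 2 blue.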

How the data were processed

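The authors deposited one table of RPKM with 1 column per library. The submitters' processing notes name CASAVA 1.8, GSNAP and GRCm38, and the gene model and counting rule are not given in the sources used here. The labels name a stranded total RNA kit and the study's methods an RNA kit of the same maker. Dividing out length and depth brought 100.0% of the 15405 genes above 0 to whole reads (tolerance 0.001 reads), with lengths equal to an annotated coding length in 60.8% of 10773 tested genes (GENCODE M21). Reads quoted are these, and their absolute scale rests on the annotated lengths. Groups followed the sample titles. Replicate numbers pair nothing, and each library is 1 line, so p-values measure the spread between these lines, which may be technical.

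Values were tested as log2(RPKM + 1) with limma 3.58.1 (R 4.3.3) with an intensity trend, 2 knockouts against 2 controls, over 10871 genes with mean RPKM of at least 1, with Benjamini-Hochberg adjustment. The fit was tested on simulated data. The genes, lists and tests were chosen with earlier results of these data known, and the study itself names Hif1a, Crebbp and Loxl2 from these libraries. Named in the text were S100a4, the 10 genes, up to 4 tested genes of each list with the largest smallest-pair change in 1 direction, 9 well-known pathway genes (Slc2a1, Ldha, Car9, Bnip3, Adm, Ankrd37, Nrp1, Flt1, Kdr) and the 3 nearest profiles to Hif1a and to Vegfa. Hif3a was added after its values were seen. Of the genes so selected and the marker genes, 2 are not reported here by themselves. Lists are described by counts, with no test. The correction for GC content and length took natural splines with 4 degrees of freedom each. The alternatives are listed in the closing section. Python 3.11.15 was used with numpy 2.4.6, pandas 2.3.3 and scipy 1.17.1. Symbols of 20973 genes matched GENCODE M21, and promoters came from RefSeq (GRCm38.p6). Guide and protein sequences were not used here.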

Additional observations from a re-analysis of the deposited data

Results flagged for a closer look

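In 2 of the genes named, the knockouts lay on opposite sides of both controls. For Egln1 the exon3 KO was above and the exon2 KO below both controls, with a log2 ratio of exon3 KO over exon2 KO of 0.50 on the log2(RPKM + 1) scale. For Ankrd37, a HIF target of unsettled function, the same ratio was 0.81, with 3.75 RPKM in the exon3 KO and 1.70 in the exon2 KO against 2.27 in the parental cells and 1.77 in the vector control. The difference between the guides was not tested, since each has 1 library. Of 10871 tested genes, 857 (7.88%) had their knockouts on opposite sides in this way.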

How the results depend on the processing

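The fit was repeated with 13 alternatives and the 2-fold count also at 3-fold. Over the 664 values so obtained for 52 named genes, 608 kept their direction and side of the threshold, 39 passed it in addition and 17 changed sign. The cause was not tested. Genes called over the whole table, 2 in the fit reported, were 1 with a pseudocount of 0.1 and with quantile normalization, 0 with median ratio scaling, no filter, the GC content and length correction and voom on whole reads, 32 at a mean RPKM of at least 5 and 285 with a robust prior. Leaving out a library gave 3 to 788, with 788 without the parental cells, 451 without the vector control and 4 without the exon3 KO. The lone control or knockout left is then assumed to vary like the other group.

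Of the 10 genes, 1 (Hif1a) was called at a mean RPKM of at least 5 and with a robust prior, and 0 to 3 without a library: Hif1a alone without the parental cells, and Hif1a, Epas1 and Egln3 without the vector control. The log2 change of Hif1a ran from -2.16 to -1.08 and its limma adjusted p from 1.46e-06 to 0.373. Epas1 had no value at a mean RPKM of at least 5, and moved most with a pseudocount of 0.1 (-2.34) and voom (-2.58). At least 2-fold lower in all pairs was 1 gene with quantile normalization (Hif1a), at the stricter filter (Hif1a) and after the GC content and length correction (Epas1), and 0 genes at 3-fold. Higher in both knockouts were 0 genes after that correction. Lower in both were 5 genes after median ratio scaling, which lowered the vector control by 0.136 (log2), with Egln3 and Vegfa then overlapping.

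The median of the glycolysis list was 0.32 after median ratio scaling and 0.13 to 0.33 without a library. That of the targets outside glycolysis was -0.18 without the vector control, -0.09 without the exon3 KO and 0.22 at most. Signs changed after the GC content and length correction for Vhl (-0.09), Egln1 (-0.08), Adm (-0.27), Bbs9 (0.30) and Rictor (0.02), with quantile normalization for Adm (-0.08), Bbs9 (0.12) and Pdzk1 (0.17), and with median ratio scaling for Slc2a1 (0.09). Without a library, Egln1 ran from -0.11 (without the exon3 KO) to 0.39, Ankrd37 from -0.15 to 0.66, Slc2a1 from -0.21 to 0.16, Ldha from -0.69 to 0.33, Flt1 from -2.18 to 0.01 and Adm from -1.37 (without the vector control) to 1.42 (without the parental cells). Depth limits Epas1 most, with 24 and 25 reads in the knockouts. No paired analysis was possible because the titles carry no replicate numbers.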
